A study of Homo sapiens with 4 samples.

Results

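The p53 pathway was followed in Ishikawa cells through 9 genes: *MDM2* and *MDM4*, whose products hold p53 in check, and the p53 targets *CDKN1A*, *SESN1*, *ZMAT3*, *RRM2B*, *BAX*, *BBC3* and *FAS*. They were taken by name as members of the pathway, out of 58522 genes listed, and all 9 were abundant enough to be tested. The choice was made with earlier results of these data known. Ishikawa cells are a long-cultured human line derived from an endometrial adenocarcinoma, used as a model of the endometrial epithelium. RNA-seq was made from 2 libraries of cells given a negative control shRNA (control) and 2 libraries of cells given an shRNA against *CDYL*, a chromodomain corepressor (*CDYL*-sh). Cells of both groups were transduced with a vector carrying the hairpin and then selected with puromycin, so the control cells share that treatment. It is not stated whether each library had a culture of its own, or whether the *CDYL*-sh libraries 1 and 2 carry the same hairpin. Their titles end in sh1 and sh2, which are also names in the paper's list of *CDYL* hairpins. They are called replicates 1 and 2 here. The p-values therefore measure only the spread between these libraries, which may be technical.

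p53 is a transcription factor that is made and destroyed continuously. MDM2 is the ubiquitin ligase that marks p53 for destruction, its relative MDM4 binds and blocks p53, and *MDM2* is itself switched on by p53, which closes a negative feedback loop. When p53 is stabilised, its targets stop the cell cycle (*CDKN1A*), lower growth signalling (*SESN1*), regulate RNA (*ZMAT3*), supply nucleotides for repair (*RRM2B*) or lead to cell death (*BAX*, *BBC3*, *FAS*). In the endometrium p53 is best known for its loss in serous carcinoma.

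Of the 9 genes, *CDKN1A* and *FAS* were higher in *CDYL*-sh, *MDM2* was lower, and no call was made for the other 6. Over the 9 genes the log2 fold change had a median of 0.14, against 0.01 over all genes tested. That median is the value of *SESN1*, which did not pass. With offsets for GC content and length, given below, *SESN1* was at -0.05. The test was edgeR's quasi-likelihood test on all 16158 genes that passed a filter on low counts, with Benjamini-Hochberg adjustment and a threshold of 0.05. By that test 25.7% of all genes were called, 13.6% as higher and 12.1% as lower, so 3 calls among 9 genes lie near the background.

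RefSeq promoter windows of *MDM2*, *FAS* and *CDKN1A*, which changed, and of *SESN1*, which did not pass the test but held a p53 site, are shown first, since a p53 site is what ties a target to p53. Each window runs from 250 bases before an annotated start to 50 bases after it, on GRCh38, and is written 5′ to 3′ on the strand of the gene. Capitals mark a match to the 20-base p53 consensus, which is a pair of adjoining 10-base half-sites, with at most 3 mismatches and with the C and G of each core kept. The consensus reads the same on both strands. Windows were found for 8 of the 9 genes, 16 windows in all. The start of *MDM2* in intron 1 of the transcript ENST00000258149 (window chr12:68808767-68809066, plus strand), the start of *FAS* in intron 1 of ENST00000652046 (chr10:88991181-88991480, plus strand) and the start of *SESN1* in intron 1 of ENST00000436639 (chr6:109008939-109009238, minus strand) held a site. The window of *CDKN1A* (chr6:36678464-36678763, plus strand), which covers the first 50 bases of exon 1 of ENST00000244741, held none and is shown as the window of the gene with the largest rise.
MDM2: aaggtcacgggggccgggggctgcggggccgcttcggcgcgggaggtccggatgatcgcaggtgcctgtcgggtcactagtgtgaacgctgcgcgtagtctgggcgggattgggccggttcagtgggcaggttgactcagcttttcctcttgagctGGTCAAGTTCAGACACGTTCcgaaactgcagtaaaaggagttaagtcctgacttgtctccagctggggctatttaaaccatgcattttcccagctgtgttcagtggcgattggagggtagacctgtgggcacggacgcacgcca
FAS: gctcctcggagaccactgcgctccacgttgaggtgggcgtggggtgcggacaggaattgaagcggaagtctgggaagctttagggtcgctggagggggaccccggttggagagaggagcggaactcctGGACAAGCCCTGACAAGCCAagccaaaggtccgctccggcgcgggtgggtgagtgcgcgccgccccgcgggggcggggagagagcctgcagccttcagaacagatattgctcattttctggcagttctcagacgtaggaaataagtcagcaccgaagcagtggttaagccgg
SESN1: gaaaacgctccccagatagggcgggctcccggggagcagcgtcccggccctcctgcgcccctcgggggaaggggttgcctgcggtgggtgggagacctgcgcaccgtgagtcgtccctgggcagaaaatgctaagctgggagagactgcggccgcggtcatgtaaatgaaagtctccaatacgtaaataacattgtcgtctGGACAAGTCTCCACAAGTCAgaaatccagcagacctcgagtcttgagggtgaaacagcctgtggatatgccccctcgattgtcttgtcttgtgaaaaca
CDKN1A: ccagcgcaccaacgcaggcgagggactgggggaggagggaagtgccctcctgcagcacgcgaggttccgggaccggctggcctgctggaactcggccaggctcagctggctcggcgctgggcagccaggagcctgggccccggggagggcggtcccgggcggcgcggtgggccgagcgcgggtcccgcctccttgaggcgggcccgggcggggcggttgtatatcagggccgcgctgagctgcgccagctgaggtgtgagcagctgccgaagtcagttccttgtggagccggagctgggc

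The *MDM2* site lay from 94 to 75 bases before the start with 2 mismatches, the *FAS* site from 122 to 103 bases before it with 2 mismatches, and the *SESN1* site from 49 to 30 bases before it with 3 mismatches. Such a site was present in 1.12% of all 35116 promoter windows. A further *MDM2* window, which overlaps the printed one, held the same site. The upstream windows of *MDM2*, *FAS* and *SESN1*, another window of *SESN1* in intron 1, and the windows of *MDM4*, *ZMAT3*, *BBC3* and *BAX*, held none. A match describes the letters of a window and is not evidence of binding, and a window without one says nothing of sites outside it. The letters GGGCGG, counted on both strands, occurred 4 times in the *CDKN1A* window. The printed windows of *MDM2*, *FAS* and *SESN1* held 1, 2 and 1. The upstream window of *SESN1*, which was not called, held 8, and its other window in intron 1 held 5. At least 1 such match was present in 44.95% of all windows and in 65.4% of the windows of genes tested.

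**Figure D1:**
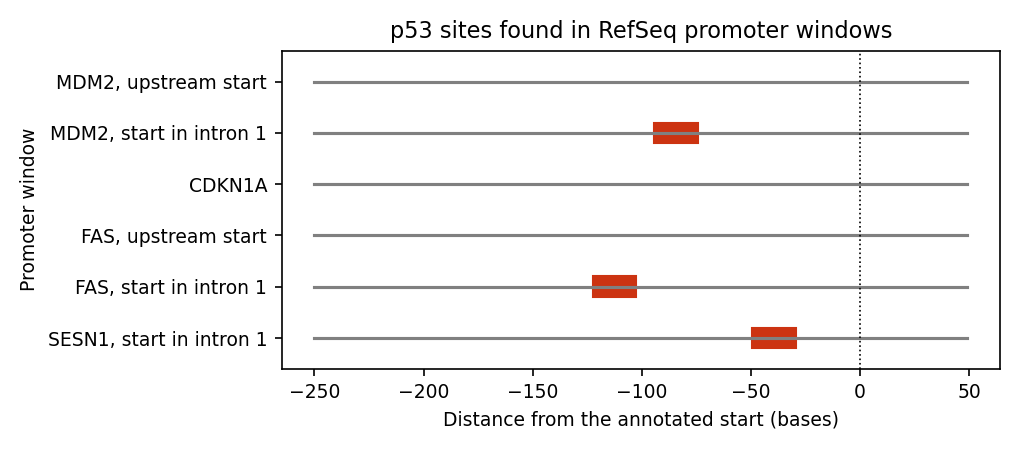
RefSeq promoter windows (grey lines) of *MDM2*, *CDKN1A*, *FAS* and *SESN1* by the distance from the annotated start in bases (dotted line at 0), with p53 sites as red boxes. The sites of *MDM2*, *FAS* and *SESN1* lie in the windows of starts in intron 1, and the other 3 windows drawn hold none.

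*MDM2* (ENSG00000135679, plus strand of chromosome 12, 68808177 to 68845544) was lower in *CDYL*-sh. It measured 97.2 CPM (the count scaled to the effective size of the library) in control 1 and 75.9 CPM in control 2, and 41.7 CPM in *CDYL*-sh 1 and 46.4 CPM in *CDYL*-sh 2. Both *CDYL*-sh libraries lay below both controls, and the controls were further apart than the *CDYL*-sh libraries. Control averaged 86.6 ± 15.1 CPM (SD, n = 2), and *CDYL*-sh averaged 44.01 ± 3.33 CPM (SD, n = 2), which is 1.97-fold lower. The log2 fold change was -0.98 (standard error, SE, 0.13, 95% confidence interval -1.24 to -0.71, adjusted p = 3.06e-05, edgeR). In bulk RNA, fewer cells that express a gene and less of its RNA per cell cannot be told apart.

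The change of *MDM2* ranged from -0.80 without control replicate 1 to -1.14 without control replicate 2 on the log2 scale, and it passed without each of the 4 libraries. In FPKM, which the authors also normalized for length, it stood at 26.4 and 22.2 in control and at 13.1 and 15.4 in *CDYL*-sh. There the fall was 0.73 on the log2(FPKM + 1) scale and did not pass with limma (adjusted p = 0.0572, range 8.25e-21 to 0.0572 over 17 alternatives). Exons of *MDM2* overlap those of other genes of the locus, between which the counting could divide reads. A processed pseudogene inside *MDM2* (ENSG00000256664) shares 439 exon bases with it and was given 83.3 and 59.98 counts in control and 50.8 and 26.6 in *CDYL*-sh, and *MDM2* itself has counts that are not whole. On the other strand, the carboxypeptidase M gene shares 133 exon bases with *MDM2* and had 87 and 80 counts in control and 284 and 201 in *CDYL*-sh.

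*MDM4* (ENSG00000198625, plus strand of chromosome 1, 204516379 to 204558120) did not pass the test. Its levels were 16.98 and 12.3 CPM in control and 16.6 and 15.4 CPM in *CDYL*-sh, so the groups overlapped. The log2 fold change was 0.12 (95% confidence interval -0.22 to 0.47), which leaves room for a moderate change in either direction. In FPKM the groups did not overlap and the order was turned, with 2.72 and 2.47 in control and 1.93 and 2.13 in *CDYL*-sh. Over all genes with a mean of at least 0.5 FPKM, 58.8% had groups that did not overlap in FPKM. On the log2(FPKM + 0.1) scale the difference for *MDM4* was -0.34, and it did not pass with limma (adjusted p = 0.407, range 0.110 to 0.908 over 17 alternatives).

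*CDKN1A* (ENSG00000124762, plus strand of chromosome 6, 36676460 to 36687337) encodes p21, the inhibitor of cyclin-dependent kinases through which p53 halts the cell cycle. It had the largest change of the 9 genes. Its levels were 48.9 CPM in control 1 and 62.2 CPM in control 2, and 139.9 CPM in *CDYL*-sh 1 and 156 CPM in *CDYL*-sh 2. The groups lay far apart compared with the distance between the libraries of a group. The means were 55.6 ± 9.36 CPM (SD, n = 2) and 148 ± 11.4 CPM (SD, n = 2), a 2.66-fold higher level in *CDYL*-sh. The log2 fold change was 1.41 (SE 0.12, 95% confidence interval 1.16 to 1.67, adjusted p = 4.14e-07, edgeR). In FPKM *CDKN1A* rose from 26.2 and 33.1 to 75.9 and 83.0, and the rise also passed with limma on that scale (adjusted p = 0.0273, range 6.84e-30 to 0.0278 over 17 alternatives).

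*FAS* (ENSG00000026103, plus strand of chromosome 10, 88953813 to 89029605) encodes a death receptor of the cell surface. It was present at 5.60 and 4.71 CPM in control and at 9.10 and 10.7 CPM in *CDYL*-sh, with no overlap. The means were 5.16 ± 0.629 CPM (SD, n = 2) and 9.92 ± 1.16 CPM (SD, n = 2), a 1.92-fold higher level. The log2 fold change was 0.94 (SE 0.19, 95% confidence interval 0.53 to 1.35, adjusted p = 0.00176, edgeR). In FPKM it stood at 3.25 and 2.16 in control and at 4.98 and 5.26 in *CDYL*-sh, and the difference did not pass with limma (adjusted p = 0.101, range 6.09e-05 to 0.101 over 17 alternatives). *FAS* shares 387 exon bases with *ACTA2* on the other strand, which had 45 and 37 counts in control and 12 in each *CDYL*-sh library. *FAS* also shares 1899 exon bases with a long noncoding RNA gene of that strand (ENSG00000286116), which the deposited table does not list. It shares 166 with *STAMBPL1* on its own strand (57 and 52 counts in control, 71 and 50 in *CDYL*-sh). Its ligand gene *FASLG* had no counts in any library, which allows up to 3 counts per library.

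*BAX* (ENSG00000087088, plus strand of chromosome 19, 48954815 to 48961798), whose product opens the outer mitochondrial membrane, stood at 43.4 and 49.1 CPM in control and at 45.2 and 45.5 CPM in *CDYL*-sh. Both *CDYL*-sh libraries lay between the controls. The log2 fold change was -0.03, with a 95% confidence interval of -0.27 to 0.21. *BBC3* (ENSG00000105327, minus strand of chromosome 19, 47220822 to 47232766) encodes PUMA, which frees BAX to act. It was measured at 4.49 and 6.14 CPM in control and at 4.61 and 6.48 CPM in *CDYL*-sh. Replicates differed more than groups, and the interval of -0.43 to 0.54 around a log2 fold change of 0.05 is the widest of the 9 genes.

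*SESN1* (ENSG00000080546, minus strand of chromosome 6, 108984309 to 109094846) encodes a sestrin, a restraint on mTORC1. It had 6.46 and 6.59 CPM in control and 8.43 and 5.94 CPM in *CDYL*-sh. Of these, replicate 1 lay above both controls and replicate 2 below them, and the log2 fold change was 0.14 (95% confidence interval -0.29 to 0.58). *ZMAT3* (ENSG00000172667, minus strand of chromosome 3, 178960121 to 179072215), which encodes an RNA-binding zinc finger protein, had 13.6 and 11.9 CPM in control and 16.2 and 16.01 CPM in *CDYL*-sh. *RRM2B* (ENSG00000048392, minus strand of chromosome 8, 102204502 to 102238961), the p53-induced subunit of ribonucleotide reductase, had 23.8 and 20.8 CPM in control and 24.9 and 26.9 CPM in *CDYL*-sh. For both genes the *CDYL*-sh libraries lay above the controls, but the log2 fold changes of 0.34 for *ZMAT3* (adjusted p = 0.109, edgeR) and 0.21 for *RRM2B* (adjusted p = 0.247, edgeR) did not pass. In all, 5 of the 9 genes had CPM that did not overlap between the groups, as did 64.3% of all genes tested.

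**Figure D2:**
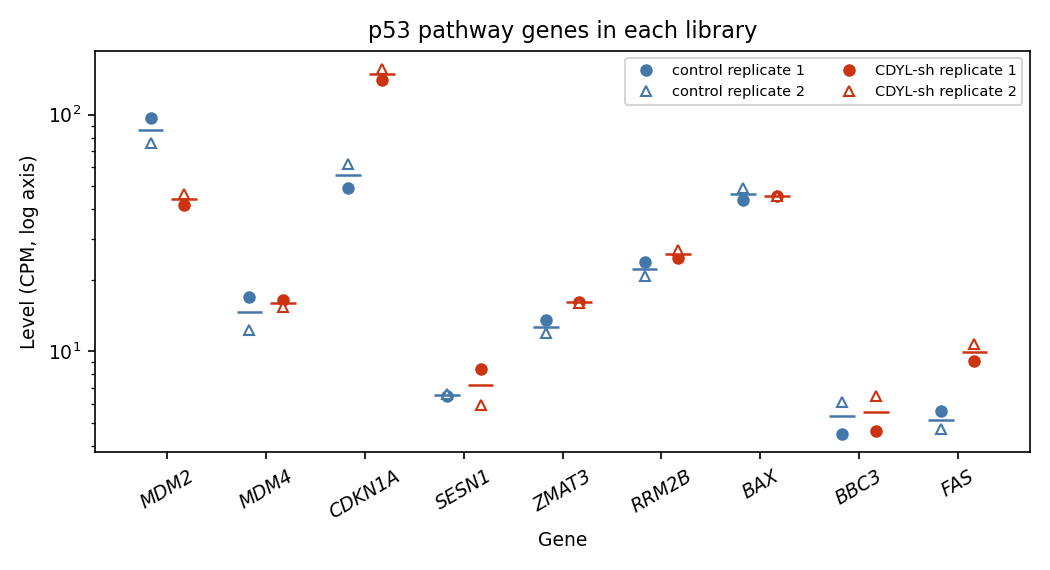
Level of each of the 9 genes (CPM, log axis) in the control libraries (blue) and the *CDYL*-sh libraries (red), with replicate 1 as filled circles, replicate 2 as open triangles and bars at the group means (n = 2). *MDM2* fell from 97.2 and 75.9 to 41.7 and 46.4 CPM, *CDKN1A* rose from 48.9 and 62.2 to 139.9 and 156 CPM, and *FAS* rose from 5.60 and 4.71 to 9.10 and 10.7 CPM.

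Base composition moved with the direction of change in these libraries. Of genes with a GC content under 40% in the canonical transcript, 26.1% rose and 4.04% fell in *CDYL*-sh. Of genes with 55 to 60% GC, 8.69% rose and 17.5% fell. At 60% GC and over, 11.6% rose and 12.8% fell. *RRM2B* (35.1% GC), *FAS* (38.0%), *ZMAT3* (38.2%) and *MDM2* (39.5%) belong to the class under 40% and *CDKN1A* (57.3%) to that of 55 to 60%. *MDM2* and *CDKN1A* each changed against the more frequent direction of its class, and *FAS* changed with it. With GC and length offsets the log2 fold changes were -1.23 for *MDM2*, 1.502 for *CDKN1A* and 0.74 for *FAS*, and all 3 passed. The value of *ZMAT3* became 0.03, and those of *RRM2B* (-0.05), *SESN1* (-0.05) and *MDM4* (-0.08) changed sign, with none of them past the test in either fit.

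**Figure D3:**
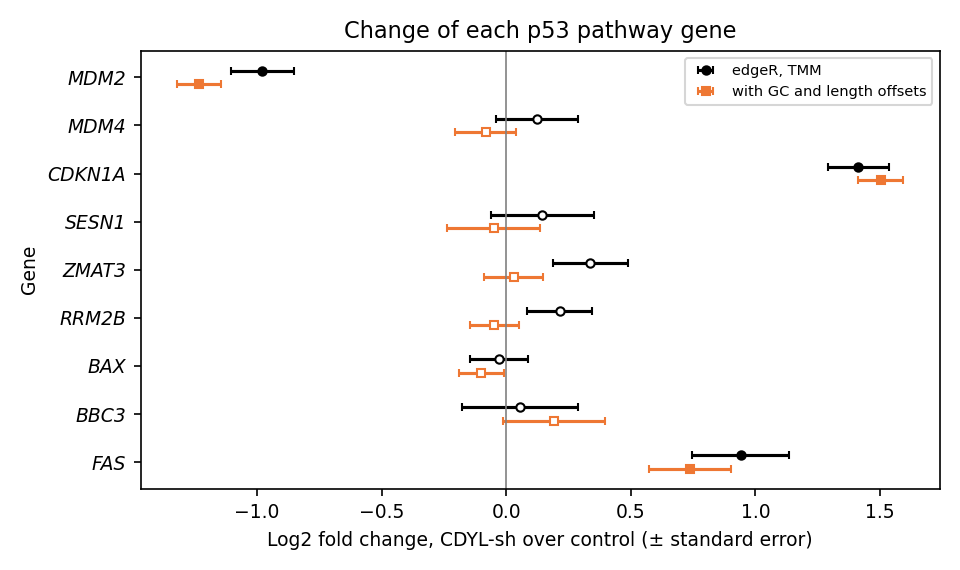
Log2 fold change of each of the 9 genes, *CDYL*-sh over control, with SEs, from edgeR (black) and from edgeR with GC and length offsets (orange). Filled symbols passed an adjusted p of 0.05, which were *MDM2* (-0.98 and -1.23), *CDKN1A* (1.41 and 1.502) and *FAS* (0.94 and 0.74), and open symbols did not.

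Between genes, levels are compared in FPKM, which is per length. In control cells *BAX* was the most abundant at 91.5 ± 0.693 FPKM (SD, n = 2). *CDKN1A* at 29.6 ± 4.84 and *MDM2* at 24.3 ± 2.98 followed, and the ranges of these 2 genes overlapped in control. *RRM2B* (5.36 ± 0.0141) and *BBC3* (5.11 ± 0.382) followed, and their ranges overlapped as well. *FAS* (2.71 ± 0.771), *MDM4* (2.60 ± 0.177) and *SESN1* (2.57 ± 0.0141) came next, each overlapping the following of these 3 but none overlapping *BBC3* above or *ZMAT3* below, and *ZMAT3* was the lowest at 1.65 ± 0.0354. In *CDYL*-sh the first 3 kept their order, but *CDKN1A* at 79.5 ± 5.03 FPKM (SD, n = 2) was close to *BAX* at 92.2 ± 4.43 and *MDM2* was far below at 14.2 ± 1.60.

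Relatives of these genes gave further values. *SESN3*, a second sestrin gene outside the 9, rose from 6.46 and 5.35 CPM to 12.03 and 13.1 CPM, or by 1.09 on the log2 scale (SE 0.18, adjusted p = 0.000315, edgeR). In the limma fits to log2 FPKM its value was 0.42 with a pseudocount of 1 and 0.77 with 0.1, and it did not pass. With the GC and length offsets *SESN3* was at 0.76 and passed. *SESN2* had a log2 fold change of -0.17 that did not pass. The other subunits of ribonucleotide reductase, *RRM1* and *RRM2*, had log2 fold changes of -0.10 and -0.24 and did not pass, although *RRM2* passed with the GC and length offsets (-0.34) and without control replicate 2 (-0.39), and was at -0.08 without control replicate 1. Of the other inhibitors in the family of p21, *CDKN1C* (p57) had a log2 fold change of 0.45 (adjusted p = 0.0183, edgeR), which became 0.36 on leaving out control replicate 1 and 0.29 on leaving out *CDYL*-sh replicate 2 and then did not pass. *CDKN1B* (p27) had one of -0.30 (adjusted p = 0.0572, edgeR) and passed without control replicate 2 (-0.39) or *CDYL*-sh replicate 1 (-0.42), and with the offsets (-0.28).

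The regulators of p53 changed in both directions. Of 23 genes that set its stability or activity, all tested, 6 were higher and 2 were lower, with a median log2 fold change of 0.00. Over all genes 13.6% were higher and 12.1% lower. *TP53BP1*, whose product binds p53 and marks broken DNA, rose by 0.80 on the log2 scale (SE 0.12), from 30.1 and 26.1 CPM to 50.2 and 47.8 CPM. *PRKDC*, the DNA-dependent kinase, rose by 0.53 (SE 0.11) and *ATR*, a checkpoint kinase, by 0.93 (SE 0.20). With the GC and length offsets *TP53BP1* was at 0.71, *PRKDC* at 0.40 and *ATR* at 0.67, and each passed. The 2 lower genes encode acetyltransferases that act on p53, with log2 fold changes of -0.53 for *CREBBP* (SE 0.12) and -0.51 for *EP300* (SE 0.12), while *KAT5*, a further acetyltransferase gene of the list, had one of -0.05 and did not pass. The checkpoint kinase genes *CHEK1* (0.18) and *CHEK2* (-0.20) did not pass either. Without *CDYL*-sh replicate 2, *ATR* (0.76), *CREBBP* (-0.42) and *EP300* (-0.35) did not pass, nor did *EP300* without control replicate 1 (-0.44).

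The 71 other p53 targets, of which 69 were tested, also held calls in both directions, with 11 higher, 13 lower and 45 not past the test. That is 34.8% of those tested, against 25.7% of all genes, with a median log2 fold change of 0.01. Of 11 targets of cell cycle arrest and growth, 2 were higher and 1 was lower, or 27.3% against 25.7% of all genes. *PHLDA3*, an inhibitor of AKT, rose by 0.69 on the log2 scale (SE 0.14) and the cyclin gene *CCNG1* by 0.36 (SE 0.11). *PLK2*, a polo-like kinase, fell from 39.1 and 38.2 CPM to 22.9 and 21.03 CPM, a log2 fold change of -0.81 (SE 0.12). *CCNG1* did not pass without control replicate 2 (0.27), without *CDYL*-sh replicate 1 (0.38) or 2 (0.34), or with the GC and length offsets (0.14).

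Of 15 other targets of cell death, 5 were lower and 10 did not pass the edgeR test, beside a background of 12.1% of all genes lower. Among those that did not pass was the receptor gene *EDA2R*, at a log2 fold change of 1.15 (SE 0.53, adjusted p = 0.119, edgeR). It had only 13 and 9 counts in control and 31 and 15 in *CDYL*-sh, and is named here after its value was seen. The 5 were the death receptor gene *TNFRSF10A* (log2 fold change -0.51), the nuclease gene *AEN* (-0.43), *TP53INP1* (-0.99), which takes part in autophagy, the BH3-only gene *BID* (-0.44) and *CDIP1* (-0.36). Each failed the test without at least 1 library. *TNFRSF10A* (-0.41), *AEN* (-0.40), *TP53INP1* (-0.91) and *CDIP1* (-0.40) failed without *CDYL*-sh replicate 2, *BID* (-0.37) and *CDIP1* (-0.33) without *CDYL*-sh replicate 1, and *CDIP1* (-0.31) without control replicate 2. *BID* was near 0 on the log2 FPKM scale (0.03).

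Of 15 targets in repair and metabolism, 1 was higher and 3 were lower, or 26.7% against 25.7% of all genes. *FDXR*, a mitochondrial reductase, had a log2 fold change of 0.58 and *STEAP3*, a metalloreductase, one of -0.46. *ALDH4A1*, an enzyme of proline breakdown, had one of -0.57, and *SCO2*, a cytochrome oxidase assembly factor, one of -1.03. In FPKM the groups overlapped for *ALDH4A1*, with 9.71 and 9.74 in control and 6.21 and 11.3 in *CDYL*-sh. On the log2(FPKM + 1) scale its difference was -0.19 (adjusted p = 0.684, limma). *STEAP3* passed without each of the 4 libraries. *FDXR* failed without control replicate 1 (0.38) or *CDYL*-sh replicate 2 (0.46), *ALDH4A1* without *CDYL*-sh replicate 1 (-0.39), and *SCO2* without control replicate 2 (-0.85) or *CDYL*-sh replicate 1 (-0.81).

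Of 30 other listed targets, 28 were tested, of which 8 were higher and 4 were lower, or 42.9% against 25.7% of all genes. *GDF15*, a secreted stress cytokine, rose from 79.3 and 92.0 CPM to 180 and 201 CPM, a log2 fold change of 1.15 (SE 0.11, adjusted p = 1.89e-06, edgeR). The helicase gene *ASCC3* rose by 1.03 (SE 0.15) and the chaperone gene *HSPA4L* by 0.79 (SE 0.15). With the GC and length offsets *GDF15* was at 1.10, *ASCC3* at 0.77 and *HSPA4L* at 0.46, and each passed. The lower genes were *CERS5* (-0.43), *SUSD6* (-0.44), *NADSYN1* (-0.30) and *DYRK3* (-1.11). *CERS5* failed without *CDYL*-sh replicate 1 (-0.38), and *SUSD6* failed without control replicate 1 (-0.42) or *CDYL*-sh replicate 2 (-0.27). *DYRK3* failed without control replicate 1 (-1.05) or *CDYL*-sh replicate 1 (-1.003) or 2 (-1.23). *NADSYN1* failed without each of the 4 libraries in turn (-0.35 to -0.26), and with the GC and length offsets (-0.20).

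Genes that act with *BAX*, *BBC3* and *FAS* were called at a share near the background. Of 22 genes of the BCL2 family and the caspases, 19 were tested, of which 2 were higher and 2 were lower, or 21.1% against 25.7% of all genes. The BH3-only gene *BMF* rose from 14.1 and 15.3 CPM to 25.6 and 23.7 CPM, a log2 fold change of 0.75 (SE 0.14). *CASP8*, the caspase that FAS recruits, had one of -0.58 (SE 0.14), and *MCL1*, which protects cells from BAX, one of -0.35 (SE 0.11). *CASP8* failed without *CDYL*-sh replicate 2 (-0.48), and *MCL1* failed without control replicate 1 (-0.33) or *CDYL*-sh replicate 2 (-0.25).

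Mitotic genes that p53 lowers through p21 and the DREAM complex gave no common direction. Of 16 such genes, 3 were higher and 4 were lower, or 43.8% against 25.7% of all genes, with a median log2 fold change of -0.01. The higher genes were *ECT2* (0.73), *KIF23* (0.67) and *BUB1* (0.63), which act in cytokinesis and the spindle checkpoint, and each passed without each library. With the GC and length offsets *ECT2* was at 0.50, *KIF23* at 0.56 and *BUB1* at 0.54, and each passed. The lower genes were the cyclin gene *CCNB1* (-0.44), the transcription factor genes *MYBL2* (-0.38) and *FOXM1* (-0.32), and *CDC20* (-0.28). *CDC20* encodes an activator of the anaphase-promoting complex. *CCNB1* failed without control replicate 1 (-0.40) or *CDYL*-sh replicate 2 (-0.31), *MYBL2* without control replicate 1 (-0.38) or *CDYL*-sh replicate 1 (-0.34). *FOXM1* failed without control replicate 1 (-0.26) or *CDYL*-sh replicate 1 (-0.36) or 2 (-0.30), and with the GC and length offsets (-0.20). *CDC20* failed without each library in turn (-0.30 to -0.28).

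**Figure D4:**
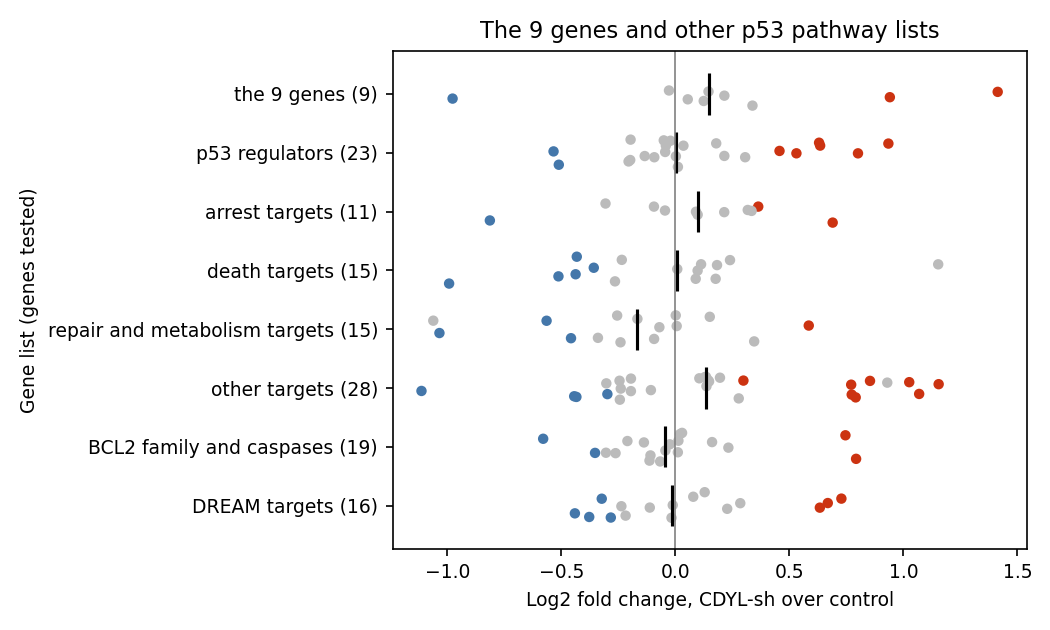
Log2 fold change, *CDYL*-sh over control, of the 9 genes and of the tested genes of each p53 pathway list (number tested in parentheses), where red (higher) and blue (lower) points passed the test and grey points did not, and a black bar at the median of each list. The medians, from the fit without GC and length offsets, lie between -0.17 for repair and metabolism and 0.14 for the 9 genes.

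The tested genes with at least 5 CPM whose pattern over the 4 libraries was most like that of *MDM2* were *POMK*, *GSTCD* and *ALPL*. Their root mean square distance from *MDM2* in log2 CPM centred on the gene mean was 0.03, 0.06 and 0.06. Those most like *CDKN1A* were *PPP1R3G*, *ELFN2* and *FXYD3*, at 0.05, 0.06 and 0.07. With 4 libraries such likeness mainly restates the size of the group difference.

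The libraries held 22341852 to 27688447 counts, and 21323 to 22007 genes had a count. *CDYL* itself fell from 50.4 and 52.98 CPM to 11.4 and 9.70 CPM, a log2 fold change of -2.29 (adjusted p = 4.26e-09, edgeR). All 6 epithelial markers were present, at a summed level of 3363 to 3756 CPM in control and 3248 to 3505 CPM in *CDYL*-sh. Among them *KRT19* (log2 fold change 0.70) and *CLDN4* (0.52) were higher in *CDYL*-sh and *KRT18* (-0.34) was lower. Of the markers of Mullerian epithelium, *PAX8* was present with a log2 fold change of 0.00, *SOX17* (-0.72) and *EMX2* (-0.32) were lower, and the steroid receptor genes *ESR1* and *PGR* were under 1 CPM in every library. Of 16 markers of stroma, leukocytes and endothelium, 12 were under 1 CPM throughout, among them *PTPRC*, *CD3E*, *DCN* and *COL3A1* at 0 or close to it. The summed level of the 6 leukocyte markers, mostly *CD68*, was 8.86 to 12.8 CPM in control and 18.7 to 21.5 CPM in *CDYL*-sh, that of the 4 endothelial markers was 3.77 to 4.26 and 7.93 to 8.70 CPM, and that of the 6 stromal markers was 13.7 to 17.3 and 8.25 to 9.21 CPM. Their part in the changes of the 9 genes was not tested.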

How the data were processed

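RNA-seq was made from Ishikawa cells with 2 control and 2 *CDYL*-sh libraries. The authors aligned the reads to GRCh38.p10 with TopHat, in orientation mode, and RSEM and edgeR are listed as further tools in the submitters' processing notes. The annotation release, and whether counting used strand, are not given in the sources used here. The deposited table holds expected counts, which the authors estimated per gene and which need not be whole, and FPKM, which the authors normalized for length and depth. Symbols were found for 98.1% of identifiers and for all listed genes. Estimated counts can divide reads between near-identical copies, so genes that have such copies are uncertain.

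Counts were rounded, filtered with filterByExpr, normalized by TMM and tested with edgeR 4.0.16 (glmQLFit and glmQLFTest, R 4.3.3) on the whole table. Standard errors are the log2 fold change divided by the root of F. Floors and intervals of counts cover counting error only. The 9 genes, the 7 other p53 lists and the tests were chosen with earlier results of these data known. Named were the 9 genes and their relatives, the 3 genes of each list with the smallest adjusted p, every count of 5 or fewer, and the nearest patterns, except 1 gene that is not reported here. Alternatives were RLE, upper quartile or no normalization, other filters and thresholds, DESeq2 1.42.0, limma-voom, limma 3.58.1 with a trend on log2 FPKM (pseudocount 1 or 0.1, mean of at least 0.5 FPKM), a replicate block, each library left out, and offsets for GC content and length, smoothed per library with mgcv. Where leaving out a library left 1 in a group, its spread was taken from the other group. The code was tested on simulated data. Positions, GC content and lengths are from GENCODE release 44 on GRCh38, and promoter windows are from RefSeq, GRCh38.p14. With 2 libraries against 2, an exact permutation test cannot go below p = 0.333 and was not used.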

Additional observations from a re-analysis of the deposited data

How the results depend on the processing

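The calls of *MDM2*, *CDKN1A* and *FAS*, and the lack of a call for the other 6 genes, held in 15 of 17 alternatives. The 2 exceptions were the limma fits to log2 FPKM (pseudocount 1 or 0.1), where 1 of the 9 genes was higher (*CDKN1A*) and 0 were lower. With the pseudocount of 1, 1 gene of the other p53 lists was higher and 0 were lower, and 224 of all genes were higher and 237 lower. With 0.1 these were 1, 0, 255 and 252. *BID* turned to 0.029 with either pseudocount. With DESeq2, *SCO2* and *DYRK3* no longer passed. Of the 22 higher and 21 lower genes of the other lists, the range without 1 library was 16 to 21 higher and 8 to 18 lower. Over all genes, 2201 higher and 1956 lower became 1159 to 2078 and 923 to 1928, with the lowest numbers without *CDYL*-sh replicate 2. *CDYL* fell by 2.18 to 2.43 on the log2 scale without 1 library.

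At an adjusted p under 0.01, 11 genes of the lists were lower, and 1236 of all genes were higher and 1060 lower. The GC and length offsets gave 2487 genes higher and 2843 lower. Numbers 1 and 2 are shared by the groups, and whether they pair the libraries is not stated. The deviations of control 1 and *CDYL*-sh 1 from their group means correlated at 0.03 over genes, which share their libraries. That value comes from 4 libraries and cannot decide whether they are paired. With the replicate block 2 of the 9 genes were higher and 1 was lower, as without it, *RRM2* (-0.23) and *CDKN1B* (-0.30) passed, and 2812 of all genes were higher and 2581 lower. With the block and the offsets together, 35 genes of the lists and 3223 of all genes were lower. No scaling moved the median log2 fold change of all genes by more than 0.1.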

Other observations

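The count and the FPKM of a gene together imply the length by which the authors' estimate scaled it, after division by the total count. That length need not be the full length of the transcripts. In *BAX*, with a canonical transcript of 795 bases, the implied length was 0.475 and 0.530 kilobases in control. For *MDM4* this length was 6.28 and 4.91 kilobases in control and 8.76 and 7.12 kilobases in *CDYL*-sh, with no overlap, and the log2 ratio of 0.51 lay at percentile 98.8 of the 12614 genes with at least 1 FPKM in every library. For *MDM2* it was 3.70 and 3.37 kilobases in control and 3.25 and 2.98 kilobases in *CDYL*-sh, a log2 ratio of -0.18 at percentile 6.35. The implied lengths of the other 7 genes overlapped between the groups, and 46.1% of all these genes did not overlap. With limma on the log2 lengths, chosen after the values were seen, no gene passed (0% of 12614, 1265 at an unadjusted p under 0.05), with an adjusted p of 0.571 for *MDM4* and 0.600 for *MDM2*. The deposited table does not give transcripts, so which isoforms carry these lengths was not analysed here.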
